A study of Mus musculus with 6 samples.

Results

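Pericentral Wnt response genes are genes that hepatocytes next to the central vein of the liver lobule transcribe when Wnt signals reach them. A list of 9 such genes was examined here (Glul, Axin2, Lgr5, Lgr4, Rhbg, Tbx3, Rnf43, Znrf3 and Lect2), taken by symbol from the count table, in which all 9 of 15565 genes were found. The data are RNA libraries of hepatocytes, the parenchymal cells of the liver, that were freed by collagenase perfusion from 3 C57BL/6 mice of 2 months and separated by a sort into cells labelled TERT(High) or TERT(Low). Each mouse gave 1 library of each kind, so there are 2 groups of 3 libraries, and all 6 libraries share the genotype Tert(CreERT2/+); R26(LSL-Tomato/+). In that genotype 1 copy of Tert, the catalytic subunit of telomerase, carries the inducible recombinase CreERT2, and 1 copy of R26 carries a Tomato reporter that needs Cre. The labels give no treatment and do not say which signal the sort used. The comparison asks whether TERT(High) and TERT(Low) hepatocytes of the same livers differ in their Wnt response. Tert itself had few raw counts, 30 to 38 in TERT(High) and 12 to 21 in TERT(Low) libraries. It did not pass the test described below (log2 fold change 0.87, SE 0.44, edgeR adjusted p = 0.249).

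Wnt proteins and R-spondins made by endothelial cells of the central vein hold beta-catenin stable in the hepatocytes around them, and beta-catenin then acts with TCF/LEF factors on its target genes. Some targets carry out pericentral metabolism, such as glutamine synthesis and ammonium transport. Others are parts of the pathway itself and damp or amplify the signal. In bulk RNA of sorted cells, fewer cells of a pericentral kind and less RNA per cell cannot be told apart.

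Levels are given in CPM (counts per 1e6 counts, scaled by TMM), with group means ± SD over 3 libraries, while a difference is the log2 fold change of TERT(High) over TERT(Low) with its standard error (SE). In the quasi-likelihood test of edgeR (Benjamini-Hochberg adjusted p under 0.05), 0 of the 9 genes differed between the groups, where 8.14% of the 13288 tested genes did. At an unadjusted p under 0.05 there were 3 (Rhbg, Lect2 and Tbx3), beside 28.7% of all tested genes. DESeq2 and limma-voom with sample weights each called 2, Rhbg and Lect2, both lower, where they called 21.2% and 18.5% of all genes. The values split the list in a pattern by mouse: Glul, Rhbg and Lect2 were lower in TERT(High) cells of all 3 mice, and Tbx3, Axin2, Lgr4 and Rnf43 were higher in all 3. Those 7 genes stand beside 54.8% of all tested genes with the same sign in every mouse.

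Library totals ran from 53.6 to 76.2 in units of 1e6 counts. As a check of the label, 10 of 10 hepatocyte markers were tested, of which 1 was called (Asgr1, lower in TERT(High), log2 fold change -0.71). Their median log2 fold change was -0.52. In all 3 mice 5 of the 10 were lower in TERT(High) cells and 2 higher, beside 26.6% and 28.2% of all tested genes. Their summed levels were 137458 to 139642 CPM in TERT(High) and 112697 to 154810 CPM in TERT(Low) libraries. Alb, the largest part of these sums, had a log2 fold change of 0.41. Log2 fold changes move with transcript length, as given below, and the marker values are not corrected for it. Asgr1 (1308 nt), Ahsg (1484 nt) and Apoa1 (1035 nt) lie in the shortest of 5 length classes, whose median was -0.46. Alb (2034 nt) lies in the class with a median of -0.16. The TERT(High) library of mouse 1 stood apart in its summed markers of stellate cells or fibroblasts, at 247 CPM against 4.74 to 14.2 CPM in the other 5 libraries. Col1a1 (127 CPM) and Col1a2 (105 CPM) made most of that sum. Of the other markers Reln was highest in that library (7.98 CPM) and Colec11 lowest (0.163 CPM). Its erythroid markers summed to 206 CPM against 17.5 to 61.0 CPM. Hba-a1 and Hba-a2 held the same counts in every library, so this sum includes the same value (64.6 CPM) for both. Alas2 was at 24.4 CPM in that library, below the 35.4 CPM in TERT(Low) of mouse 1. Kupffer cell and macrophage markers summed to 116 and 54.7 CPM in the TERT(High) and TERT(Low) libraries of mouse 3 and to 18 to 22.8 CPM elsewhere. Of 13 tested endothelial markers 11 were higher in all 3 mice, beside 28.2% of all tested genes. Among them Kdr, Lyve1 and Ptprb passed the test, where 4.43% of all tested genes were called higher. Clec4g and Wnt2 were not among the 11, and Clec4g had a log2 fold change of -0.08. The endothelial markers summed to 47.6 to 84.6 CPM in TERT(High) and 33.2 to 43.0 CPM in TERT(Low) libraries. Of the ligands that mark central vein endothelium, Wnt9b had 0 to 6 counts, Rspo3 0 to 12 counts and Wnt2 16 to 69 counts in a library, and Wnt2 alone was tested (log2 fold change -0.31, edgeR adjusted p = 0.767). The part of these other cells in the results below was not tested.

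**Figure D1:**
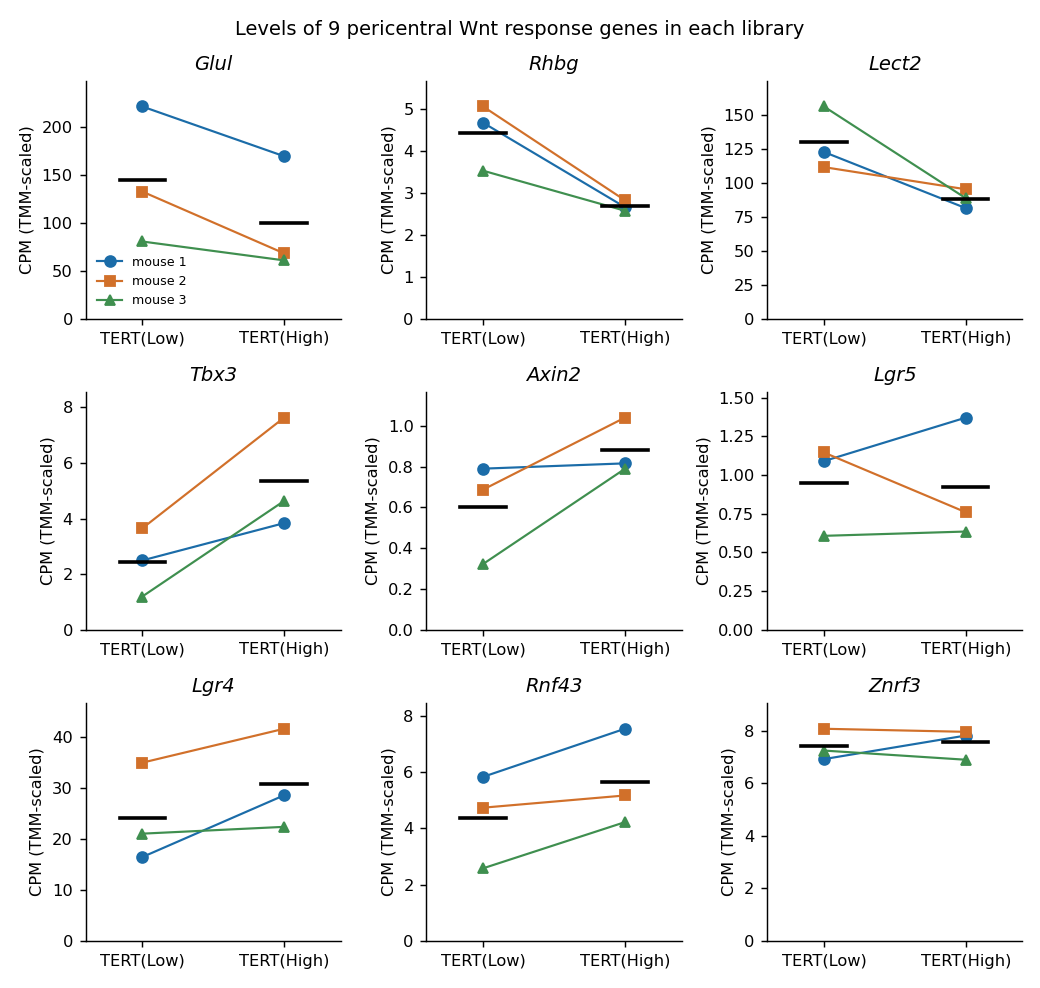
Level of each gene (CPM, TMM-scaled, linear axis from 0) in the TERT(Low) and TERT(High) library of each mouse; lines join the libraries of a mouse and black bars are group means. Glul, Rhbg and Lect2 slope down in every mouse, Tbx3, Axin2, Lgr4 and Rnf43 slope up in every mouse, and for Glul the mice lie further apart than the groups.

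Compared per length of transcript, the secreted protein Lect2 and the enzyme Glul were far more abundant than the rest. The medians over the 6 libraries were 123 CPM per kb for Lect2 (97.1 to 186) and 38.1 CPM per kb for Glul (21.8 to 79.2). Lgr4 followed at 5.03 CPM per kb (3.25 to 8.22) and Rhbg at 1.64 CPM per kb (1.33 to 2.61). The ranges of these 4 genes did not overlap. Znrf3 (1.19), Rnf43 (1.15) and Tbx3 (0.770 CPM per kb) had overlapping ranges. Rnf43 (up to 1.75) and Tbx3 (up to 1.57) also overlapped the range of Rhbg. Lgr5 (0.196) and Axin2 (0.185 CPM per kb) had the lowest medians, with ranges that overlapped each other. The highest Lgr5 value (0.291) lay above the lowest Tbx3 value (0.246 CPM per kb). So the receptor Lgr4 lay well above its relative Lgr5 in every library, on the scale of CPM per kb.

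Of the members that carry out pericentral metabolism or are secreted, Glul, Rhbg and Lect2, none passed edgeR. Glul (Entrez gene 14645, chr1:153899929-153909723 on GRCm38) encodes glutamine synthetase, which in liver is confined to the hepatocytes that border the central vein. It was at 169, 68.1 and 60.7 CPM in mice 1, 2 and 3 for TERT(High), and at 221, 132 and 80.4 CPM in TERT(Low) cells of the same mice. Mouse 1 was highest in both groups, the groups overlapped, and within a group the highest library was 2.79 times (TERT(High)) or 2.75 times (TERT(Low)) the lowest. The means were 99.4 ± 60.7 CPM and 145 ± 71.2 CPM (SD, n = 3). The log2 fold change was -0.54 (SE 0.51, 95% interval -1.76 to 0.68, edgeR adjusted p = 0.542), in the fit that ignores the pairing by mouse. With the mouse as a block it was -0.58 with a smaller SE of 0.16, and it did not pass (edgeR unadjusted p = 0.0163, adjusted p = 0.0807). Taken mouse by mouse, the log2 ratio was -0.39, -0.96 and -0.40. In the edgeR fit of the group alone without the TERT(High) library of mouse 1, the log2 fold change of Glul was -1.22 (adjusted p = 0.133). Without the TERT(Low) library of mouse 1 it was -0.10 (adjusted p = 0.944). Each of these fits keeps mouse 1, the highest for Glul, in 1 group only. With mouse 1 left out of both groups the log2 fold change of Glul was -0.72 (edgeR adjusted p = 0.212).

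Rhbg (Entrez gene 58176, chr3:88242874-88254739) encodes an ammonium transporter of the plasma membrane that is found in the same cells as glutamine synthetase. Its levels were 2.66, 2.82 and 2.57 CPM in TERT(High) and 4.67, 5.06 and 3.53 CPM in TERT(Low) cells of mice 1, 2 and 3. All 3 TERT(High) values lay below all 3 TERT(Low) values. Such separation in either direction was seen in 3 of the 9 genes (Rhbg, Lect2 and Tbx3) and in 33.4% of all tested genes, and in this direction in 15.9%. The log2 fold change was -0.72 (SE 0.21, 95% interval -1.21 to -0.22, edgeR adjusted p = 0.077), from 150 to 343 counts per library. It was -0.76 (adjusted p = 0.0888) without the TERT(High) library of mouse 1.

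Lect2 (Entrez gene 16841, chr13:56529734-56548559) encodes a protein that hepatocytes secrete into the blood and is a target of beta-catenin in liver. Its levels were 81.3, 95.1 and 88.6 CPM in TERT(High) and 123, 111 and 156 CPM in TERT(Low) cells. These groups did not overlap either, with the highest TERT(Low) value and the largest gap in mouse 3. The log2 fold change was -0.56 (SE 0.17, 95% interval -0.96 to -0.15, edgeR adjusted p = 0.0872). DESeq2 gave adjusted p of 0.0184 for Lect2 and 0.0229 for Rhbg, and limma-voom with sample weights 0.0492 and 0.0498, so for both genes the call depended on the tool.

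The sequences before 3 transcript starts are shown as examples, for the Wnt targets Lect2, Glul and Axin2. Lect2 and Glul had lower and Axin2 had higher values in every mouse, though Axin2 was close in mouse 1 (0.816 against 0.790 CPM). Lgr4 and Rnf43, also higher in every mouse, are not shown. The sequences are the 250 bases before the start in the RefSeq table of GRCm38.p6, which held windows for 5 of the 9 genes (Glul, Axin2, Lgr4, Rnf43 and Lect2). Both strands were searched for the TCF/LEF core motifs (CTTTGAT, then CTTTGAA, then CTTTGTT), and a match is in capitals.
Glul lies at chr1:153899679-153899928 on the plus strand, Axin2 at chr11:108920099-108920348 on the plus strand and Lect2 at chr13:56548539-56548788 on the minus strand. The Axin2 window lies inside the bounds printed for that gene and the Lect2 window overlaps those of Lect2, so the start used by the table is not the outermost one for these 2 genes.
Lect2: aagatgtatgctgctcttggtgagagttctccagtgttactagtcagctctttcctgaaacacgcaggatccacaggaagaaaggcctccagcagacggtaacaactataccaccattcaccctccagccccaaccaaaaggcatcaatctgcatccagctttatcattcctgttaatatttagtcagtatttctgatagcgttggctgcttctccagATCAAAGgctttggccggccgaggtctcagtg
Glul: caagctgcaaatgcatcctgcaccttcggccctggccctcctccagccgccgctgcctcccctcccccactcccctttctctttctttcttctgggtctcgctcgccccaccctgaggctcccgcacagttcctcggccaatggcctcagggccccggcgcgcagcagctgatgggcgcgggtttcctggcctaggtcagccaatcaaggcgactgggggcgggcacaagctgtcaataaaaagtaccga
Axin2: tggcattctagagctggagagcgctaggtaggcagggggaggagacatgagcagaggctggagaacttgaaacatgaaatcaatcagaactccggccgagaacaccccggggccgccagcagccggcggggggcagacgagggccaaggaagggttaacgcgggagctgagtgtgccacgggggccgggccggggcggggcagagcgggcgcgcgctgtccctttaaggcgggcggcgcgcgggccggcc
The Lect2 window held 1 match, CTTTGAT on the strand opposite to the gene, read as ATCAAAG on its own strand, from 32 to 26 bases before the start. The windows of the other 4 genes held 0 matches to these letters. Of all 32851 windows of 250 bases in the table, 12% held at least 1 of the 3 motifs and 3.21% held CTTTGAT. The match is given as a description with no test.

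Tbx3 (Entrez gene 21386, chr5:119670534-119684724), a T-box transcription factor and known Wnt target of pericentral hepatocytes, had the largest log2 fold change of the list. Its levels were 3.84, 7.63 and 4.63 CPM in TERT(High) and 2.49, 3.65 and 1.2 CPM in TERT(Low) cells. Every TERT(High) value lay above every TERT(Low) value, an order seen in 17.5% of all tested genes, although 3.84 and 3.65 CPM are close. The means were 5.37 ± 2.00 and 2.45 ± 1.23 CPM, a log2 fold change of 1.13 (SE 0.45, 95% interval 0.05 to 2.22, edgeR adjusted p = 0.159). By mouse the log2 ratio was 0.60, 1.04 and 1.87.

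Axin2 (Entrez gene 12006, chr11:108917828-108950783), the scaffold of the beta-catenin destruction complex that Wnt induces as a brake on itself, was near the limit of what this depth resolves. It had 50, 63 and 46 counts in TERT(High) and 58, 36 and 17 counts in TERT(Low) libraries. A count of 17 has an exact Poisson interval of 9.90 to 27.2 (95%, counting error only). The levels were 0.816, 1.04 and 0.789 CPM in TERT(High) against 0.790, 0.687 and 0.323 CPM in TERT(Low) cells. The groups overlapped by a small margin, and the low value of mouse 3 in TERT(Low) cells made most of the difference. The log2 fold change of 0.55 (SE 0.45, edgeR adjusted p = 0.476) became 0.26 (adjusted p = 0.738) without that library.

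The R-spondin receptors Lgr4 and Lgr5, which raise the Wnt response by keeping the ligases Rnf43 and Znrf3 away from Frizzled receptors, showed no difference that passed the test. Lgr5 (Entrez gene 14160, chr10:115450314-115587780), the receptor restricted to pericentral hepatocytes, was at 1.37, 0.760 and 0.635 CPM in TERT(High) and 1.09, 1.15 and 0.607 CPM in TERT(Low) cells, from 32 to 84 counts. The groups overlapped fully, and the sign of the log2 ratio differed between mice (0.31, -0.54 and 0.06). Its log2 fold change of -0.04 had a 95% interval of -1.10 to 1.02, so a doubling or its opposite could not be told from no difference at this depth. With library totals alone as the scaling the value was 0.13. Lgr4 (Entrez gene 107515, chr2:109917647-110014257) was at 28.6, 41.6 and 22.4 CPM in TERT(High) and 16.4, 35 and 21.0 CPM in TERT(Low) cells. Mouse 2 was highest in both groups, and the log2 fold change was 0.35 (SE 0.35, 95% interval -0.47 to 1.18, edgeR adjusted p = 0.555).

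Rnf43 and Znrf3, the paired membrane ligases that remove Frizzled receptors and that Wnt induces as feedback inhibitors, differed in how they varied. Rnf43 (Entrez gene 207742, chr11:87663087-87735539) was at 7.54, 5.17 and 4.22 CPM in TERT(High) and 5.83, 4.74 and 2.58 CPM in TERT(Low) cells. Mouse 1 was highest and mouse 3 lowest in both groups, as for Glul. The log2 fold change was 0.36 (SE 0.36, 95% interval -0.49 to 1.22, adjusted p = 0.559 by edgeR), and 0.05 (adjusted p = 0.942) without the TERT(High) library of mouse 1. With mouse 1 left out of both groups it was 0.36 (edgeR adjusted p = 0.621). Znrf3 (Entrez gene 407821, chr11:5276329-5444847) was the most even gene of the list, at 7.82, 7.96 and 6.90 CPM in TERT(High) and 6.92, 8.08 and 7.25 CPM in TERT(Low) cells. Its highest library was 1.15 times the lowest in TERT(High) and 1.17 times in TERT(Low) cells. A log2 fold change of 0.03 with a 95% interval of -0.35 to 0.40 was found, which was -0.0205 with upper-quartile scaling.

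**Figure D2:**
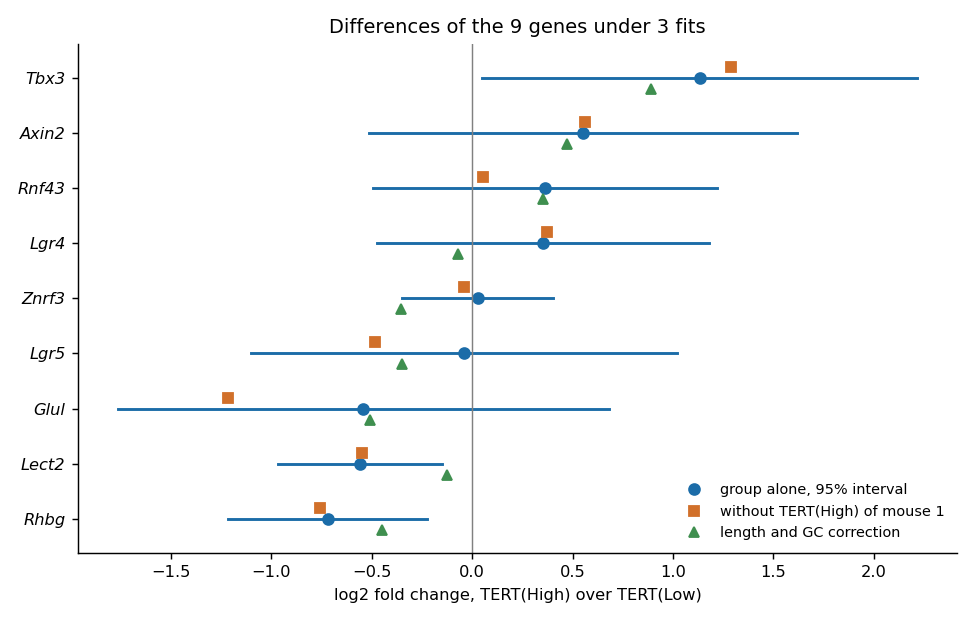
Log2 fold change of TERT(High) over TERT(Low) for each gene: circles with 95% intervals are from the edgeR fit of the group alone, squares leave out the TERT(High) library of mouse 1, and triangles follow the correction for transcript length and GC content. The interval excludes 0 for Tbx3, Lect2 and Rhbg, none of which passed the adjusted threshold. Glul moves from -0.54 to -1.22 without that library, a fit that keeps mouse 1 in TERT(Low) only. With mouse 1 left out of both groups (not drawn) Glul is at -0.72. Lect2 moves to -0.13 with the correction.

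In these libraries the log2 fold change moves with transcript length, and the 9 genes are unequal in length. With genes split into 5 equal classes of transcript length, the median log2 fold changes from the shortest to the longest class were -0.46, -0.16, 0.06, 0.28 and 0.65 over 12548 genes. Lect2 (837 nt) lay in the shortest class, close to its median. Rhbg (1937 nt) and Glul (2792 nt) lay below the medians of their classes, and Tbx3 (4856 nt), Axin2 (4260 nt) and Rnf43 (4310 nt) above that of theirs. Lgr5 (4714 nt), Lgr4 (5060 nt) and Znrf3 (6311 nt) lay below theirs. After each library's trend with length and GC content was removed, the log2 fold changes were 0.89 for Tbx3, 0.47 for Axin2, 0.35 for Rnf43, -0.51 for Glul and -0.45 for Rhbg. Under the same correction Lect2 went from -0.56 to -0.13 (edgeR adjusted p = 0.814), Lgr4 from 0.35 to -0.0703, Lgr5 from -0.04 to -0.35 and Znrf3 from 0.03 to -0.35. No gene of the table passed edgeR after the correction (0 of 12548, with 1425 at an unadjusted p under 0.05).

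**Figure D3:**
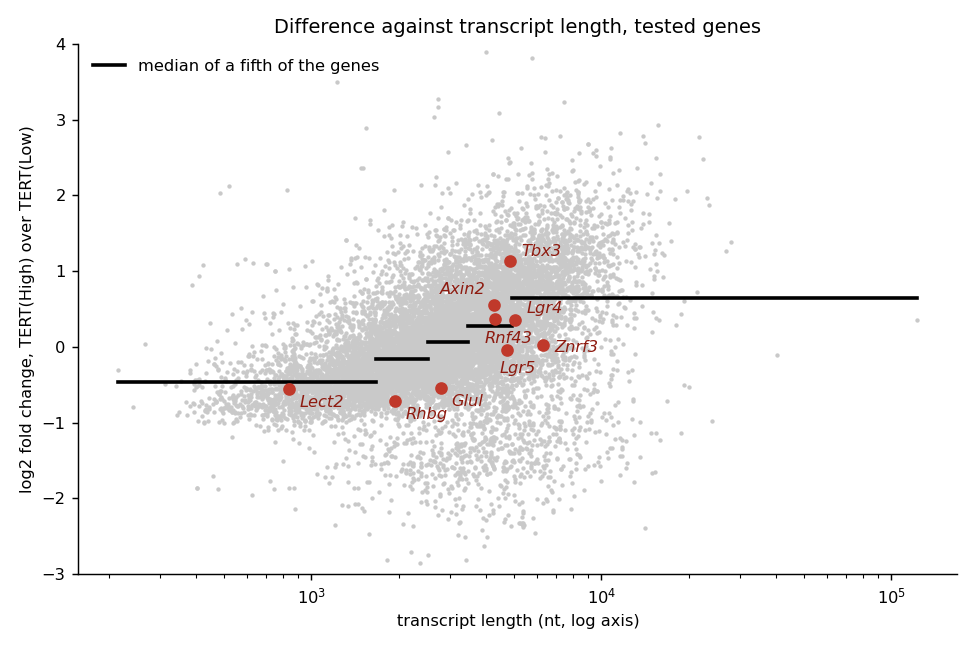
Log2 fold change of TERT(High) over TERT(Low) against transcript length (nt, log axis) for 12548 tested genes in grey, 3 of which lie outside the axis range, with the 9 genes in red; black bars span each of 5 length classes at its median. The bars climb from -0.46 to 0.65, Lect2 sits on its bar, and Tbx3 lies above and Znrf3 below theirs.

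The authors' deposited table of results held 8 of the 9 genes, all but Axin2. It listed adjusted p of 0.0111 for Glul (log2 fold change -0.57), 0.0226 for Lect2 (-0.54), 0.00426 for Tbx3 (1.01) and 0.0502 for Rhbg (-0.66). Of the 8 genes in the authors' deposited table, 3 were under 0.05, beside 29.2% of its 10858 genes. The directions for these 4 genes were the same as above, and the model behind that table is not given in the sources used here. Its mean normalised counts lay within 3-fold of the mean of the raw counts, scaled to equal totals, for 98.86% of 10851 shared genes. Among the 8 genes the ratio of these levels was 1.62 for Lgr5, 0.739 for Znrf3 and at most 1.07, and above 1, for the rest. The tables conflict by more than 3-fold for 124 shared genes, among them Wnt9b and Wnt4. For Wnt9b the authors' deposited table lists a mean of 2283 against 2.92 in the counts, and for Wnt4 271 against 40.8. The cause was not tested, and the count table is used here.

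Some counts overlap a neighbour. Mir8114, a microRNA precursor of 111 nt annotated at chr1:153899926-153900036, covers the start of Glul, with 93 bases in the first exon of Glul in GENCODE M21. It held 268 to 1196 counts a library, and its count was 6.63% to 8.01% of that of Glul in each of the 6 libraries. Of 10592 genes of at least 1 CPM, Mir8114 also had the pattern most like Glul, with a root mean square distance of 0.0821 between centred log2 levels over the 6 libraries. Tmem41a (0.130) and Pnpla7 (0.155) came next. By the same measure Prob1 (0.0771), Zfp687 (0.0817) and Sema4b (0.0830) were nearest to Axin2, and Dck (0.0835), Dtwd2 (0.0895) and Ctns (0.0962) to Lgr5. Lect2 overlaps Fbxl21, on the opposite strand, which held 49 to 80 counts a library. Rnf43 overlaps 1110028F11Rik, which held 31, 21 and 26 counts in TERT(High) and 72, 33 and 57 counts in TERT(Low) libraries of mice 1, 2 and 3. That is 6.71% to 10.6% of the Rnf43 count in TERT(High) and 13.3% to 41.9% in TERT(Low) libraries, higher in TERT(Low) cells of every mouse where Rnf43 was lower. How reads of the overlap were assigned is not given in the sources used here.

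Around the 9 genes, the genes that rose in TERT(High) cells were 1 receptor, 4 relay and 4 nuclear genes; the difference between lists was not tested. Of 107 other Wnt pathway genes in 6 lists, 86 were in the count table and 66 were tested. By edgeR 9 of the 66 were higher and 0 lower, beside 4.43% of all tested genes called higher and 3.71% called lower, and the median log2 fold change was 0.30 against -0.01 for all tested genes. The median transcript of the 66 genes was 4093 nt against 2962.5 nt for all tested genes. Most endothelial markers were also higher in TERT(High) cells, as given above, in values without the length and GC correction. After that correction the median of the 66 Wnt pathway genes was 0.16, with 0 of them called. With any library except TERT(High) of mouse 1 left out edgeR called 0 of these genes (without TERT(High) of mouse 2 or 3, or TERT(Low) of mouse 1, 2 or 3). In each of those fits it also called 0 genes of the whole table. Without TERT(High) of mouse 1 it called 8 of these genes, of which 6 were among the 9. That fit called 937 genes higher and 713 lower of 13685 tested.

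Ligands, their secretion factors and R-spondins had 0 of 7 tested genes called by edgeR and 0 at an unadjusted p under 0.05, with negative values in 6 and a median of -0.40. Wnt5b, a ligand of beta-catenin independent signalling, had the highest counts at 10.3 ± 1.5 CPM in TERT(High) cells and at 14.1 ± 4.0 CPM in the others (adjusted p = 0.279 by edgeR). Porcn, which adds the lipid that Wnt proteins need, was at 1.33 ± 0.125 against 1.77 ± 0.778 CPM. Among 11 tested receptors Lrp6 alone passed the test. Lrp6, the co-receptor that Wnt joins to Frizzled, was at 18.6, 21.9 and 23.8 CPM in TERT(High) and 5.56, 6.51 and 5.90 CPM in TERT(Low) cells. The groups were far apart, at a log2 fold change of 1.84 (edgeR SE 0.16, adjusted p = 0.0241). With length and GC content corrected for, the difference for this transcript of 9368 nt was 1.09 on the log2 scale (edgeR SE 0.33, adjusted p = 0.321). The receptor kinase Ryk was the most abundant receptor at 22.8 ± 2.69 against 21.8 ± 3.58 CPM, and Lrp5, the other co-receptor, was at 20.4 ± 7.67 against 12.2 ± 8.71 CPM (adjusted p = 0.447). Of 3 tested extracellular inhibitors 0 were called. Notum, which strips the lipid from Wnt proteins and is itself a pericentral Wnt target, was at 15.6 ± 4.84 against 18.5 ± 6.25 CPM, and Kremen1 at 5.67 ± 1.69 against 3.92 ± 0.984 CPM.

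In the destruction complex and cytoplasmic relay 4 of 23 tested genes were higher and 0 lower. Tnks, a tankyrase that marks Axin for destruction, was at 7.41 ± 1.55 CPM in TERT(High) against 2.10 ± 0.666 CPM in TERT(Low) cells (log2 fold change 1.82, SE 0.31, edgeR adjusted p = 0.0296). Dvl3, a Dishevelled relay protein, rose by 1.42 (SE 0.32) with an adjusted p of 0.0472, and Usp34, a deubiquitinase of Axin, by 1.19 (SE 0.25) with an adjusted p of 0.0412. Ppp2r5e, a regulatory subunit of phosphatase PP2A, rose by 0.80 (SE 0.19) at an adjusted p of 0.0498, just under the threshold. After the length and GC correction the log2 fold changes were 1.13 for Tnks, 1.32 for Dvl3, 0.21 for Usp34 and 0.35 for Ppp2r5e, and none passed (adjusted p from 0.268 to 0.832). The 2 most abundant genes did not pass the test. Ctnnb1, beta-catenin itself, was at 124, 128 and 115 CPM in TERT(High) and 111, 136 and 129 CPM in TERT(Low) cells, a log2 fold change of -0.03 (SE 0.14). Ppp2r5a was at 81.0 ± 5.81 against 78.8 ± 9.90 CPM.

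TCF/LEF factors and nuclear cofactors had 4 of 17 tested genes higher and 0 lower; their median transcript was 5205 nt and their median log2 fold change 0.72. Ep300, a histone acetyltransferase that beta-catenin recruits, rose by 1.99 (SE 0.38, edgeR adjusted p = 0.0346), and Chd8, a remodeller that restrains beta-catenin, by 1.39 (SE 0.26, adjusted p = 0.0325). Cdc73, a transcription elongation factor that binds beta-catenin, and Tbl1x, a corepressor exchange factor, rose by 0.88 (SE 0.18) and 0.72 (SE 0.16), with adjusted p of 0.0378 and 0.0475. With the mouse as a block, Chd8, Dvl3 and Ppp2r5e did not pass (adjusted p of 0.0508, 0.0595 and 0.0504), and Gsk3b did. Tle1, a Groucho corepressor and the most abundant of the list, was at 22.8 ± 2.57 against 20.7 ± 2.63 CPM. After the length and GC correction Cdc73 had a log2 fold change of -0.26 and Tbl1x of 0.30, while Ep300 was at 1.32 and Chd8 at 0.82, with adjusted p above the threshold for all. Of 5 other Wnt targets tested 0 were called: Ccnd1, cyclin D1, was at 118 ± 39.1 against 108 ± 24.9 CPM, and Myc at 5.89 ± 5.15 against 4.20 ± 3.29 CPM, highest in mouse 1 in both groups.

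**Figure D4:**
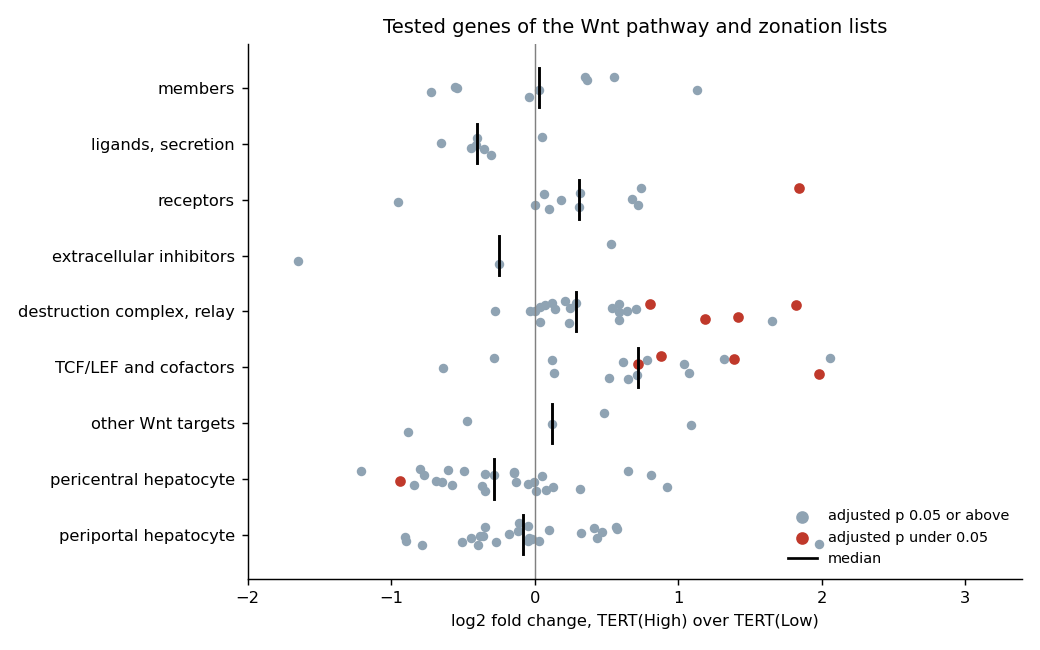
Log2 fold change of TERT(High) over TERT(Low) for each tested gene of the 9 genes (members), the 6 other Wnt pathway lists and the lists of pericentral and periportal hepatocyte genes; red points have an edgeR adjusted p under 0.05 and black bars are list medians. The red points on the right are 1 receptor, 4 relay and 4 nuclear genes, and 1 red point on the left is in the pericentral list.

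Pericentral hepatocyte genes that are not pathway parts had 1 of 27 tested genes lower and 0 higher, with a median log2 fold change of -0.28, beside 3.71% of all tested genes called lower. Of the 27 genes, 12 were lower in TERT(High) cells of all 3 mice and 4 higher in all 3, beside 26.6% and 28.2% of all tested genes. With the mouse as a block 3 of the 27 genes were lower, among them Oat and Lhpp with edgeR adjusted p of 0.0421 and 0.0487. That fit called 571 of all 13288 tested genes lower, and 9.72% in either direction. Oat, ornithine aminotransferase, which lies in the same glutamate route as glutamine synthetase, was at 72.0, 129 and 63.1 CPM in TERT(High) and 144, 187 and 126 CPM in TERT(Low) cells. The abundant cytochromes Cyp3a11 and Cyp2e1 were at 5478 ± 351 against 5452 ± 2348 CPM and 3377 ± 530 against 4298 ± 642 CPM, and neither passed. The median transcript of the list was 2152 nt, and its median log2 fold change after the length and GC correction was -0.11.

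Periportal hepatocyte genes, which mark the other end of the lobule, had 0 of 26 tested genes called by edgeR, where 3 reached an unadjusted p under 0.05 (1 higher, 2 lower), and a median log2 fold change of -0.08. DESeq2 called Pigr higher and Sdsl lower, and limma-voom called Pigr higher. Their most abundant genes, Alb (albumin) and Serpina1c, were at 83330 ± 6153 against 62650 ± 12102 CPM and 18757 ± 3526 against 24095 ± 3654 CPM. The difference between the pericentral and periportal lists was not tested.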

How the data were processed

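RNA of 6 libraries was measured. Per the labels, a KAPA stranded mRNA kit was used on RNA from RNeasy micro columns. The genome mm10 and the tools DESeq2, TopHat2 2.0.13 and Trim Galore 0.4.0 are named per the submitters' processing notes; not given in the sources used here are the counting tool, its strand setting and its gene models, so reads of overlapping genes are uncertain. Raw gene counts were deposited as whole numbers. In the authors' deposited table the signal column is the mean count after size factors, the log2 columns are a fold change and its SE, with the same fold change as a ratio, the score column is the Wald statistic, and the p-value columns are p and adjusted p.

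Here edgeR 4.0.16 (R 4.3.3) was run on all genes kept by filterByExpr (13288 of 15565), with TMM scaling and robust quasi-likelihood fits of the group alone; the common biological coefficient of variation was 40.7%, and 29.64% with the mouse as a block. SE is the absolute log2 fold change over the square root of F. The labels state that same-numbered libraries came from the same mouse; their deviations from the group means correlated at -0.12, 0.77 and 0.68 in mice 1, 2 and 3. P-values of the fit of the group alone ignore this pairing. Per-mouse log2 ratios add 0.1 CPM.

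Transcript length and GC content are from GENCODE M21 (the transcript with the longest coding sequence) for 94.43% of tested genes, and coordinates from RefSeq GRCm38.p6. The correction fits a smooth of each library's log2 counts on both with mgcv 1.9.3, used as offsets. In all 19 alternatives were run, including DESeq2 1.42.0 and limma 3.58.1. The scripts were tested on simulated data. Intervals of counts cover counting error only.

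Earlier results of these data were known when the 9 genes, the lists and the naming rule were chosen. Named are the 9 genes, up to 4 called genes of each list with the largest change at 1 CPM or more, the 2 most abundant tested genes of each list, and the 3 genes of at least 1 CPM nearest in pattern to Glul, Axin2 and Lgr5. Oat, Lhpp, Gsk3b, Asgr1, the called endothelial markers, Pigr, Sdsl, Mir8114's overlap, Fbxl21 and 1110028F11Rik were added after their values were seen. The values of 1 called gene of the pericentral list are not reported here.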

Additional observations from a re-analysis of the deposited data

How the results depend on the processing

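Depth limits Axin2 (17 to 63 counts) and Lgr5 (32 to 84 counts) most. The smallest edgeR adjusted p of any gene was 0.0241, so calls lay close to the threshold. The strict filter left Axin2, Lgr5, Rhbg, Tbx3 and Rnf43 untested. For the 9 genes the count of calls was 0 higher and 0 lower in every alternative except DESeq2 and limma-voom, which each called 2 lower (Rhbg and Lect2, in DESeq2 at -0.74 and -0.59). Pairing by mouse (replicate block) also called 0 of the 9 genes, with adjusted p of 0.0807 for Glul, 0.0754 for Rhbg, 0.083 for Lect2 and 0.067 for Tbx3; among the 9 genes and the lists it changed no call beyond those given in the report.

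Over all genes, 588 higher and 493 lower became 888 higher with the strict filter (at least 5 CPM in 3 libraries), 1522 and 1298 with DESeq2, 1358 and 1103 with limma-voom, 19 lower with library totals alone, and 0 and 0 after the length and GC correction, with or without the replicate block. With library totals alone the median over all genes moved to 0.14 (log2). Leaving out a library or a mouse gave 0 to 937 higher and 0 to 713 lower, above 0 only without TERT(High) of mouse 1. The 9 higher Wnt pathway genes became 14 with DESeq2, 0 after the length and GC correction with or without the block, and 0 to 8 with a library or mouse left out. The 1 lower pericentral gene became 0 with library totals alone, with no filter and after the length and GC correction with or without the block, 4 with DESeq2 and 3 with the replicate block, and 0 to 1 with a library or mouse left out. Periportal genes had 1 higher with the strict filter, DESeq2 and limma-voom and 1 lower with DESeq2, and 0 to 1 higher with a library or mouse left out.

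Signs turned for 3 of the 9 genes. Lgr5 was at 0.13 with library totals alone and ran from -0.48 to 0.26 with a library or mouse left out. Lgr4 was at -0.0703 after the length and GC correction and -0.014 with the block added. Znrf3 was at -0.0205 with upper-quartile scaling, -0.35 and -0.36 after the correction without and with the block, and -0.0443 to 0.10 with a library or mouse left out. Glul ran from -1.22 to -0.10, Axin2 from 0.26 to 0.85, Rnf43 from 0.05 to 0.62, Tbx3 from 0.77 to 1.54, Rhbg from -0.86 to -0.60 and Lect2 from -0.72 to -0.40 with a library or mouse left out.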
